A study of Mus musculus with 12 samples.

Results

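The genes described here are 33 transcripts that B cells, plasma cells and antigen-presenting cells are known for, read in RNA from sorted regulatory T cells (Tregs). They were taken by gene symbol from the deposited table of 17955 genes, which holds all 33; 31 of them were among the 12903 genes with enough reads to be tested. By role they are 7 genes of the B cell antigen receptor complex and its signalling, 8 surface receptors, 4 transcription factors and coactivators, 5 plasma cell genes, 5 genes of MHC class II presentation and 4 other B cell genes.

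RNA was sequenced from 12 libraries in 4 groups of 3 mice, all on the C57BL/6 strain and 7 weeks old. Every mouse carried the Foxp3 YFP-Cre allele, in which Cre and the yellow fluorescent protein are made where the Treg factor Foxp3 is made. Wild-type (WT) mice were Tkt+/+, and knockout (cKO) mice were Tkt fl/fl, so that transketolase, an enzyme of the pentose phosphate pathway, is lost in Foxp3-expressing cells. Each genotype was given either DMαKG or vehicle in the drinking water, starting in the pregnancy of the mother and going on into adult life. Cells from spleen and lymph node were sorted as CD4+CD25+YFP+, a gate that would leave out B cells and plasma cells. The comparison asks how much B lineage RNA the sorted cells carried and whether it differed between the groups.

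B cells carry an antigen receptor made of membrane immunoglobulin and the signalling chains CD79A and CD79B, and they restrain it through inhibitory receptors such as CD22. They also present antigen on MHC class II, as dendritic cells and macrophages do. When they become plasma cells they shut down much of this programme and secrete antibody, for which the J chain and the chaperone MZB1 are made. Immunoglobulin heavy and light chain genes are not described singly here. Several were looked for in a list of further B lineage genes, given below, not all of which was in the table.

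Each library held between 15710000 and 18880000 summed estimated counts, and between 12333 and 12608 genes had at least 10. Levels are CPM, the counts of a gene as a share of the library's total, scaled by TMM, given in the order of replicates 2, 3 and 4 for the vehicle groups and 1, 2 and 3 for the DMαKG groups. Levels of different genes are compared only in TPM, which also divides by length. Tkt, the targeted gene, measured 133, 102 and 111 CPM in WT with vehicle, 26.2, 37.2 and 41.8 in cKO with vehicle, 110, 137 and 194 in WT with DMαKG, and 37.8, 34.6 and 31.5 in cKO with DMαKG, so every library fitted its genotype label. The treatment label was not checked. All 10 markers of T cells and Tregs were detected in every library. Their summed level ran from 4050 to 6710 TPM, against 29.6 to 68.3 TPM for 12 B cell markers.

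1 library stood apart. Replicate 3 of cKO with DMαKG had the highest level of 23 of the 33 transcripts. It also had the lowest Foxp3 (280 CPM, against 332 to 545 elsewhere) and the lowest Cd3e (159 CPM, against 241 to 349), and its 8 neutrophil markers summed to 125 TPM, against 0.0 to 15.1 TPM in the other libraries. At the other end, replicate 2 of cKO with vehicle had the lowest level of 13 of the 33 and the highest of 0. The Y-linked gene Ddx3y was at 0.0555 CPM in replicate 3 of WT with vehicle and at 0.518 and 0.509 in replicates 1 and 3 of cKO with DMαKG, at 22.6 in replicate 2 of WT with DMαKG, and between 109 and 241 in the other 8. Ddx3y was thus uneven across the groups, and the labels do not give the sex of the mice. Values with a Y-linked covariate are given below for Cd22 only. For the 33 transcripts, values without replicate 3 of cKO with DMαKG are given beside the results where leaving it out turned a direction or moved a value by over 1.5 times, and for some results those without another library. The part that the neutrophil markers play in them was not tested.

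**Figure D1:**
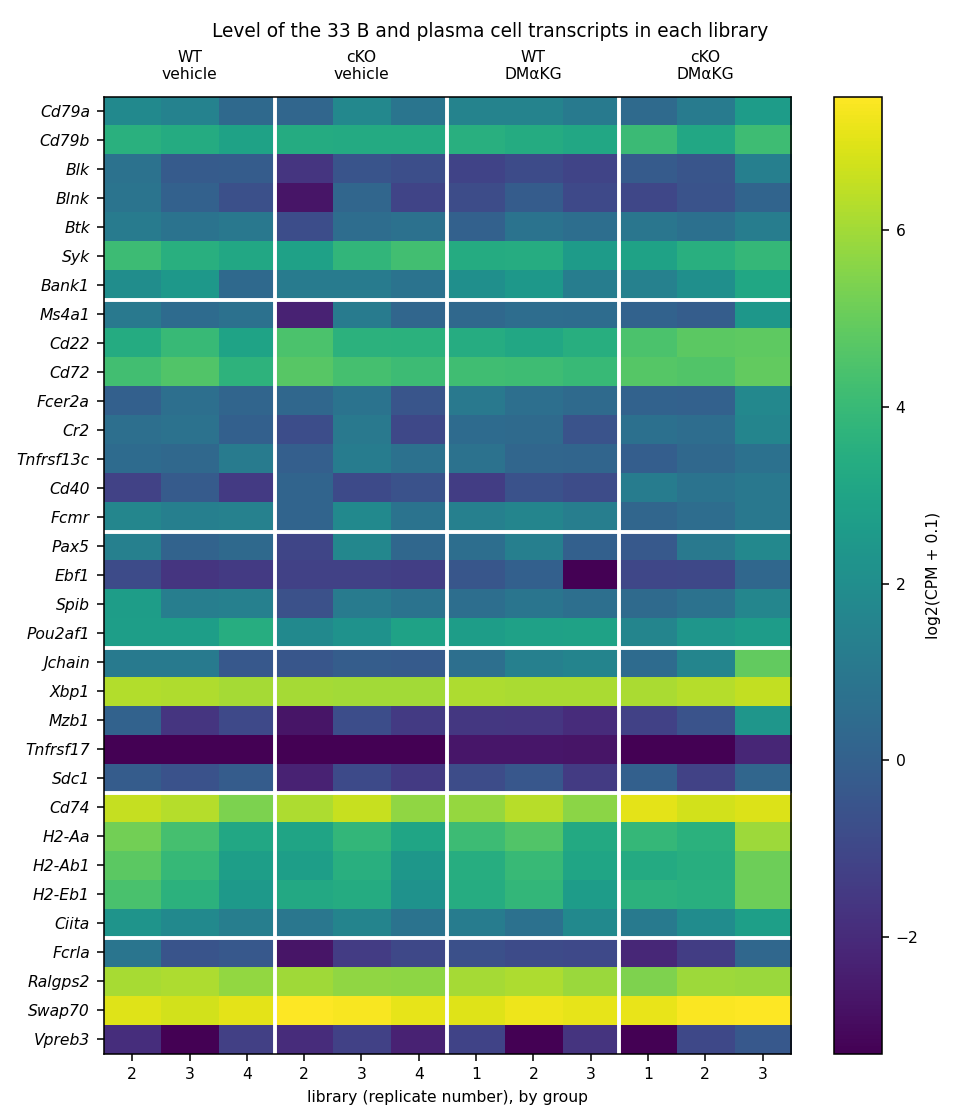
Level of each of the 33 transcripts (rows, grouped by role with white lines) in each of the 12 libraries (columns), as log2(CPM + 0.1). The last column, replicate 3 of cKO with DMαKG, holds the highest value of 23 of the 33 rows, and the fourth column, replicate 2 of cKO with vehicle, the lowest of 13.

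Most of the transcripts were scarce. Mean TPM over the 12 libraries was below 5 for 21 of the 33, from 5 to 50 for 9 and at least 50 for 3. The 3 most abundant were Cd74, the MHC class II invariant chain, at 148 TPM, Swap70, a signalling protein linked to Rac, at 79.0 TPM, and Xbp1, a factor of the unfolded protein response that many cell types make, at 71.5 TPM. For comparison, the T cell receptor chain Cd3e averaged 442 TPM. Highest and lowest libraries differed by less than 2-fold for Xbp1 (1.44), Swap70 (1.69) and Ralgps2 (1.72), an exchange factor for Ral. Jchain spanned 45.9-fold. In 25 of the 33, every library held more than 3 counts.

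Cd79a, a signalling chain of the B cell receptor, measured 3.39, 2.72 and 1.21 CPM in WT with vehicle, 1.08, 3.24 and 1.75 in cKO with vehicle, 2.75, 2.78 and 2.08 in WT with DMαKG, and 1.23, 2.19 and 6.23 in cKO with DMαKG. All 4 groups overlapped, and the highest value was the library that stood apart. As a share of Cd3e in TPM, Cd79a ran from 0.466% to 5.89% with a median of 1.19%. The 5.89% came from the library that stood apart, which had both the highest Cd79a (11.79 TPM) and the lowest Cd3e (200.26 TPM). In bulk RNA, fewer cells of a type and less RNA per cell cannot be told apart, so these shares are not shares of cells. The cKO to WT difference averaged over both treatments was a log2 fold change of 0.04 ± 0.40 (SE), with an adjusted p of 0.982 by edgeR's quasi-likelihood test with Benjamini-Hochberg adjustment over all 12903 genes, the test used throughout. Without the library that stood apart it was −0.41.

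Its partner Cd79b was more abundant per length, 20.2 against 5.71 TPM on average. It measured 11.8, 9.94 and 7.40 CPM in WT with vehicle, 10, 9.77 and 9.85 in cKO with vehicle, 11.5, 10.1 and 9.07 in WT with DMαKG, and 16.8, 8.94 and 17.7 in cKO with DMαKG. Replicates 1 and 3 of the last group were the 2 highest of all libraries, while replicate 2 lay below all 3 WT libraries given DMαKG. The cKO to WT log2 fold change with DMαKG was 0.50 ± 0.24 (adjusted p = 0.497, edgeR) and 0.33 without the library that stood apart. The chains did not keep a fixed ratio: Cd79b to Cd79a in TPM was between 2.29 and 4.94 in 10 libraries, 7.46 in replicate 2 of cKO with vehicle and 11.0 in replicate 1 of cKO with DMαKG.

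The other 5 genes of receptor signalling were Blk, a Src-family kinase of B cells, the kinases Syk and Btk, the linker Blnk and the scaffold Bank1. Blk measured 1.58, 0.777 and 0.787 CPM in WT with vehicle, 0.217, 0.604 and 0.516 in cKO with vehicle, 0.351, 0.454 and 0.373 in WT with DMαKG, and 0.777, 0.635 and 2.48 in cKO with DMαKG. The cKO libraries were all lower than WT with vehicle and all higher than WT with DMαKG. Its interaction, the DMαKG effect in cKO less that in WT, had the smallest unadjusted p of the 31 tested, at a log2 difference of 2.92 ± 0.81 (adjusted p = 0.955, edgeR). Without replicate 3 of cKO with DMαKG the difference was 2.06. Syk ran from 6.08 to 18.8 CPM, Bank1 from 1.21 to 8.65, Btk from 0.487 to 2.35 and Blnk from 0.0542, which was 1 count, to 1.69, and none of them passed the threshold in any of the 7 contrasts.

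Among the surface receptors, Cd22 was the 1 transcript of the 31 that passed the test. CD22 is an inhibitory lectin that dampens B cell receptor signalling. Cd22 measured 10.2, 15.5 and 7.71 CPM in WT with vehicle, 21.6, 12.5 and 12.1 in cKO with vehicle, 10.3, 9.07 and 11.1 in WT with DMαKG, and 21.8, 27.8 and 27.9 in cKO with DMαKG. The 3 cKO libraries given DMαKG lay above every other library, while with vehicle the genotypes overlapped, since WT replicate 3 lay above 2 of the 3 cKO libraries. Mean levels were 10.7 ± 2.67 CPM (SD, n = 6) over WT and 20.6 ± 7.03 CPM (SD, n = 6) over cKO. Averaged over treatments, Cd22 rose in cKO by a log2 fold change of 0.91 ± 0.19, or 1.87-fold (adjusted p = 0.0422, edgeR). In this contrast 1.01% of all genes tested were called, and the 31 transcripts held 1 such call.

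The call depended on which libraries entered the fit. It ended when any of 10 of the 12 libraries was left out (adjusted p from 0.0556 to 0.122, edgeR) and held without replicate 3 of WT with vehicle (0.0228) or replicate 4 of cKO with vehicle (0.037); the log2 fold change stayed between 0.74 and 1.06. Within treatments it was 0.46 ± 0.27 with vehicle (adjusted p = 0.799) and 1.35 ± 0.27 with DMαKG (adjusted p = 0.0795), and their difference was 0.88 ± 0.37 (adjusted p = 0.955). Without the library that stood apart, the averaged value was 0.88 and that with DMαKG 1.29. With Y-linked expression as a covariate the averaged call held (0.91, adjusted p = 0.046), while the value with DMαKG was 1.20 (adjusted p = 0.302).

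The Cd22 gene lies on the minus strand of mouse chromosome 7 (GRCm38.p6, chr7:30865404-30880342). A promoter window of RefSeq, 250 bases before to 50 after an annotated start inside these bounds (chr7:30878979-30879278), is shown because Cd22 carried the call. Capitals mark the core that early B cell factor (EBF) is known to bind, TCCC and GGGA around 2 bases of any kind, searched on both strands.
Cd22: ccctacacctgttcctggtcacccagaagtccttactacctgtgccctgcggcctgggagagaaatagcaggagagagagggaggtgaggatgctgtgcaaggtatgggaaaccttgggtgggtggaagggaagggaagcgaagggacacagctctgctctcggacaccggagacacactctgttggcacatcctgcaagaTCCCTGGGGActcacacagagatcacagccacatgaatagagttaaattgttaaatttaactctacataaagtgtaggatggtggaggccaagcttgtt
The Cd22 window held 1 match, 49 bases before the start. Of 32851 RefSeq windows of this length 0.904% held the palindrome. Windows were at hand for 25 of the 33 genes, and Cd22 was the 1 among them with a match. The octamer ATGCAAAT, which POU factors bind, was in the windows of 2 of the 25, Blnk and Vpreb3, against 1.74% of all windows. A match describes letters and is not evidence of binding, and EBF also binds sites that differ from this core, which the search did not count.

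Cd40, the receptor through which helper T cells activate B cells and other antigen-presenting cells, was among the scarcest surface receptors. It measured 0.339, 0.777 and 0.262 CPM in WT with vehicle, 1.03, 0.439 and 0.567 in cKO with vehicle, 0.293, 0.567 and 0.480 in WT with DMαKG, and 2.27, 1.67 and 1.91 in cKO with DMαKG. As for Cd22, all 3 cKO libraries given DMαKG lay above the other 9. The cKO to WT log2 fold change with DMαKG was 2.10 ± 0.45 (adjusted p = 0.102, edgeR) and 2.12 without the library that stood apart. Averaged over treatments it was 1.33 ± 0.33 (adjusted p = 0.0823), so Cd40 stayed outside the threshold in each contrast of this test.

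Cd72, another inhibitory receptor of B cells, measured 18.6, 23.7 and 12.7 CPM in WT with vehicle, 26.2, 19.6 and 17.2 in cKO with vehicle, 18.3, 17.5 and 15.7 in WT with DMαKG, and 24.8, 23.8 and 30.1 in cKO with DMαKG. With DMαKG the genotypes did not overlap, at a log2 fold change of 0.61 ± 0.21 (adjusted p = 0.34, edgeR). Cd72 overlaps Tesk1 in the annotation, and the strand setting of the counting is not given, so its level is uncertain. It was singled out after its values were seen.

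Ms4a1, which encodes the B cell surface protein CD20, did not share this pattern. It measured 1.98, 1.28 and 1.57 CPM in WT with vehicle, 0.108, 2.20 and 1.08 in cKO with vehicle, 1.17, 1.36 and 1.33 in WT with DMαKG, and 0.971, 0.808 and 5.21 in cKO with DMαKG. With DMαKG, 2 cKO libraries lay below all of WT and 1 lay above. The averaged log2 fold change was 0.17 ± 0.56 (adjusted p = 0.94, edgeR), and −0.52 without the library that stood apart.

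The level of Cd22 relative to Cd79a also differed between libraries, a ratio formed after the values were seen. Cd22 to Cd79a in TPM was 5.12 in replicate 2 of cKO with vehicle, 4.57 in replicate 1 of cKO with DMαKG and 3.20 in replicate 2 of cKO with DMαKG. It was 0.745 to 1.78 in the other 9 libraries, the one that stood apart included (1.16).

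**Figure D2:**
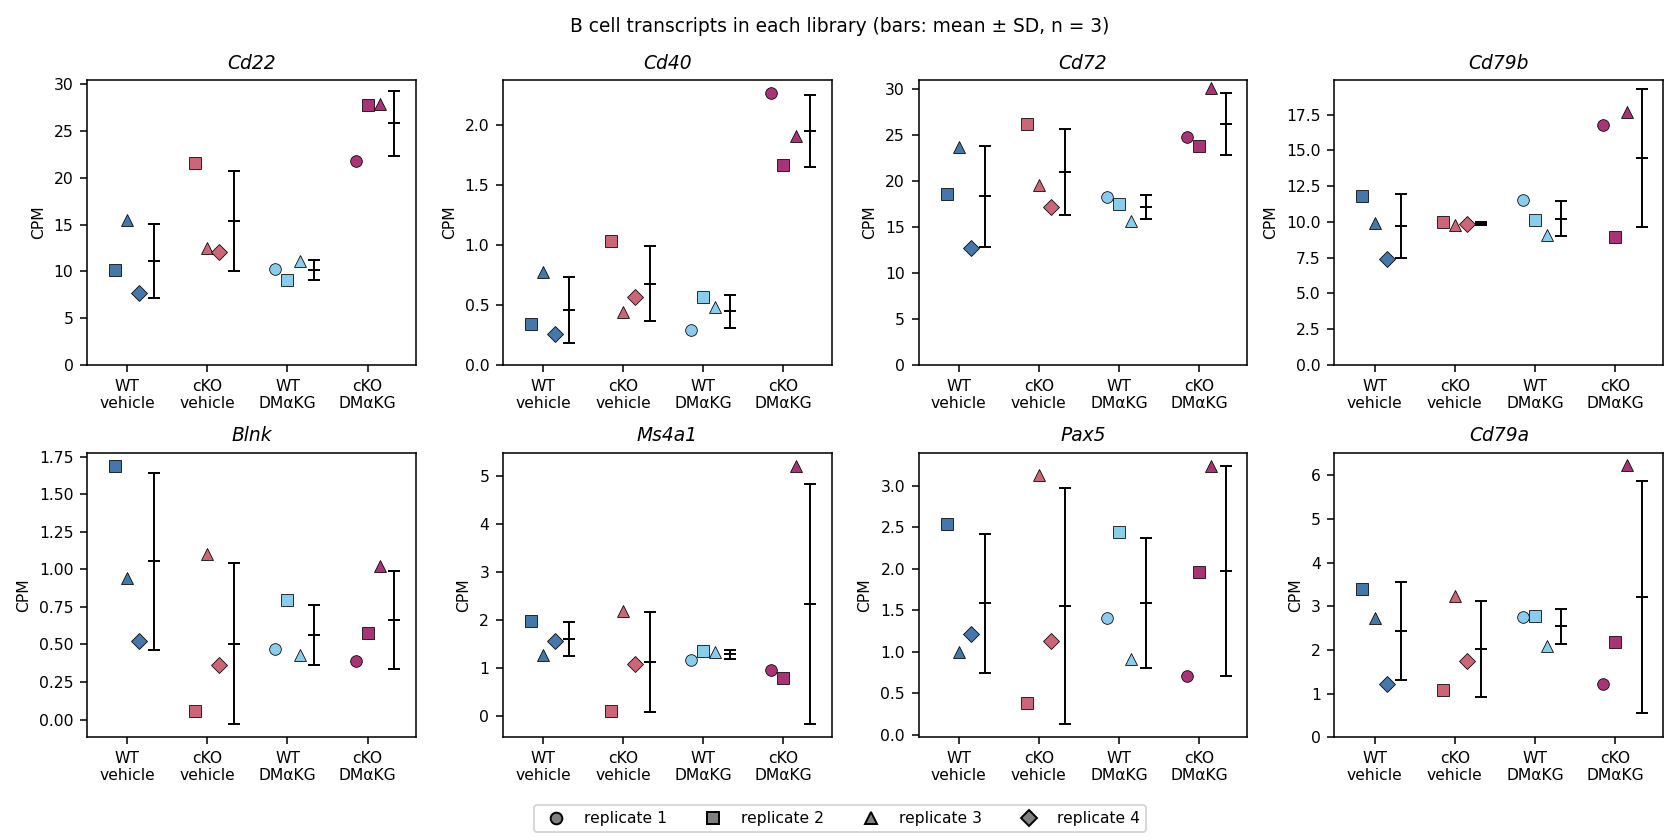
CPM of 8 B cell transcripts in each library (symbols: replicate number, bars: mean ± SD, n = 3). In the upper row Cd22 and Cd40 are highest in the 3 cKO libraries given DMαKG, while in the lower row Ms4a1, Pax5 and Cd79a are highest in replicate 3 of that group, and Blnk is lowest (0.0542 CPM) in replicate 2 of cKO with vehicle.

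The other 4 surface receptors were Fcer2a, the low-affinity IgE receptor, Cr2, the complement receptor CD21, Tnfrsf13c, the receptor for the survival factor BAFF, and Fcmr, the receptor for IgM. Their levels ran from 0.619 to 3.24, 0.413 to 2.99, 0.842 to 2.25 and 1.03 to 3.40 CPM. With DMαKG, Cr2 lay higher in all cKO than in all WT libraries (log2 fold change 0.91, adjusted p = 0.603, edgeR, and 0.47 without the library that stood apart) and Fcmr lower (−0.84, adjusted p = 0.464). Fcer2a overlaps Trappc5 and is uncertain.

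The 4 B lineage factors were low. Pax5, which holds B cell identity, averaged 0.438 TPM and measured 2.54, 0.999 and 1.21 CPM in WT with vehicle, 0.379, 3.13 and 1.13 in cKO with vehicle, 1.41, 2.44 and 0.907 in WT with DMαKG, and 0.712, 1.96 and 3.24 in cKO with DMαKG. The groups overlapped throughout, with an averaged genotype log2 fold change of 0.14 ± 0.49 (adjusted p = 0.941, edgeR), or −0.13 without the library that stood apart. Ebf1, the founding factor of the B lineage, ran from 0 counts in replicate 3 of WT with DMαKG, which allows up to 0.16 CPM (3 counts, counting error only), to 1.14 CPM.

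Spib, an Ets factor of B cells and plasmacytoid dendritic cells, measured 6.44, 2.39 and 2.52 CPM in WT with vehicle, 0.542, 2.20 and 1.65 in cKO with vehicle, 1.41, 1.76 and 1.44 in WT with DMαKG, and 1.23, 1.62 and 3.05 in cKO with DMαKG. All 3 WT libraries given vehicle lay above the vehicle cKO and above the DMαKG WT libraries, 2 comparisons that share those WT libraries. Log2 fold changes were −1.36 ± 0.51 (adjusted p = 0.545) and −1.29 ± 0.51 (adjusted p = 0.999) by edgeR, and they were −0.74 and −0.67 without replicate 2 of WT with vehicle. That replicate also held the most Siglech, a plasmacytoid dendritic cell marker, at 21.4 CPM against 0.271 to 9.11 elsewhere, and the part of those cells was not tested. Pou2af1, the coactivator OCA-B, ran from 2.98 to 10.8 CPM and was lower in cKO with an averaged log2 fold change of −0.62 ± 0.22 (adjusted p = 0.259).

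Of the plasma cell genes, Jchain, which links IgA and IgM into polymers, measured 2.03, 2.05 and 0.682 CPM in WT with vehicle, 0.650, 0.824 and 0.774 in cKO with vehicle, 1.46, 2.55 and 2.83 in WT with DMαKG, and 1.30, 2.94 and 29.8 in cKO with DMαKG. The value of 29.8 CPM came from the library that stood apart and was over 10 times that of any other. DMαKG against vehicle in cKO gave a log2 fold change of 3.91 ± 1.05 (adjusted p = 0.156, edgeR), and without that library 1.5 (adjusted p = 0.356). The groups did not overlap in that comparison, with or without it.

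Mzb1, a chaperone of antibody assembly, measured 0.960, 0.222 and 0.420 CPM in WT with vehicle, 0.0542, 0.494 and 0.258 in cKO with vehicle, 0.234, 0.227 and 0.160 in WT with DMαKG, and 0.324, 0.577 and 5.02 in cKO with DMαKG. Replicate 3 of the last group held 79 counts against 17 or fewer in each other library. The interaction was a log2 difference of 4.18 ± 1.48 (adjusted p = 0.955, edgeR) and 2.09 without that library. Jchain to Cd79a in TPM was 2.22 there and 0.115 to 0.631 in the other 11, so Jchain was higher relative to Cd79a there than in any other library.

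Xbp1 behaved otherwise. It measured 76.9, 73.9 and 66.6 CPM in WT with vehicle, 65.8, 64.1 and 64.6 in cKO with vehicle, 72.9, 69.6 and 69.9 in WT with DMαKG, and 70.1, 78.9 and 92.2 in cKO with DMαKG. Its DMαKG log2 fold change in cKO was 0.31 ± 0.11 (adjusted p = 0.206, edgeR). Sdc1, the plasma cell surface proteoglycan CD138, ran from 0.108 to 1.08 CPM. Tnfrsf17, the receptor BCMA, had 0 counts in 8 libraries and at most 2 in the others, and was not tested.

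**Figure D3:**
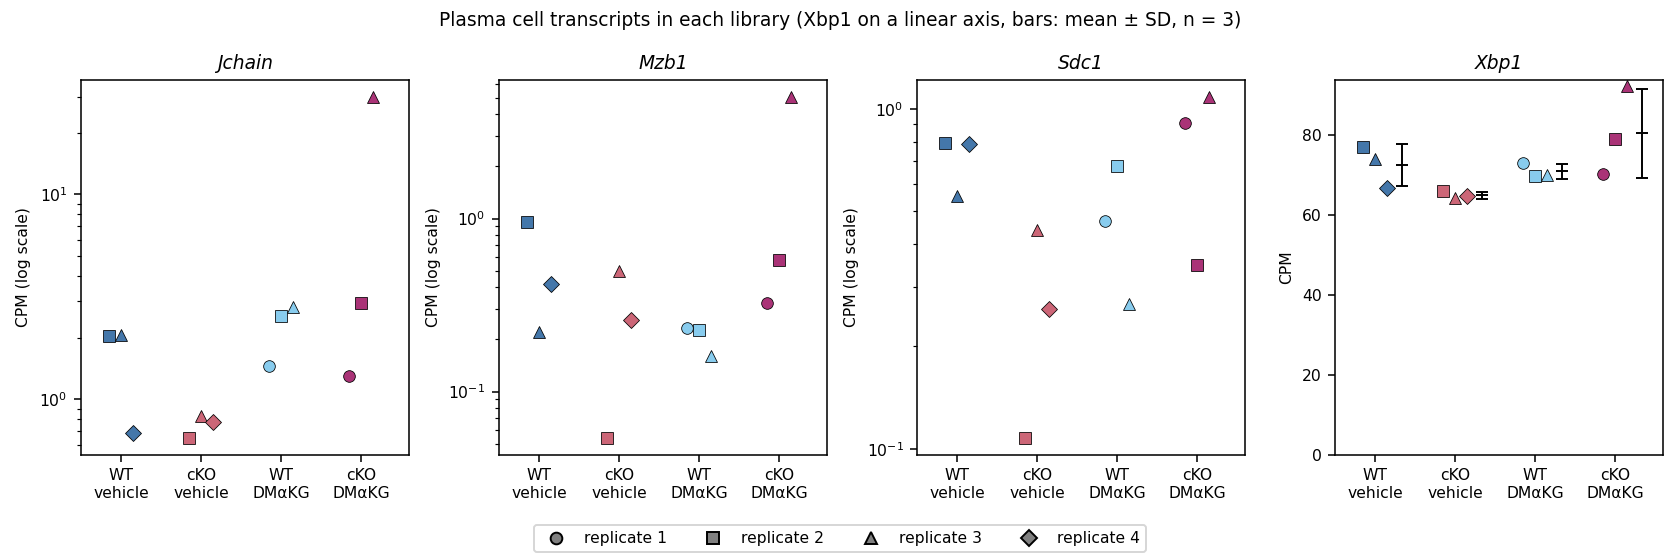
CPM of 4 plasma cell transcripts in each library (symbols: replicate number); the first 3 panels have a log axis. Jchain (29.8 CPM) and Mzb1 (5.02 CPM) stand far above the rest in replicate 3 of cKO with DMαKG, while Xbp1 lies between 64.1 and 92.2 CPM in all 12.

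MHC class II molecules are dimers of an alpha and a beta chain, escorted by the invariant chain and switched on by the coactivator CIITA. H2-Aa, an alpha chain, measured 37.4, 19.7 and 8.86 CPM in WT with vehicle, 7.91, 14.2 and 8.15 in cKO with vehicle, 16.9, 23.8 and 9.44 in WT with DMαKG, and 14.8, 12.2 and 60.6 in cKO with DMαKG. Its partner H2-Ab1 measured 27.5, 15.2 and 6.71, then 6.66, 11.3 and 5.16, then 10.7, 15.7 and 8.22, then 9.78, 11.1 and 34.7 CPM in the same groups. Both were highest in the library that stood apart and next highest in replicate 2 of WT with vehicle, and all groups overlapped.

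The chains kept close ratios, as H2-Aa to H2-Ab1 in TPM stayed between 1.16 and 1.85 in all 12 libraries. H2-Eb1, a beta chain, measured 20.8, 12.5 and 5.51 CPM in WT with vehicle, 9.15, 10 and 4.54 in cKO with vehicle, 10.4, 14.5 and 6.35 in WT with DMαKG, and 12.5, 11.5 and 34.4 in cKO with DMαKG. With DMαKG all 3 cKO libraries lay above the vehicle cKO libraries for H2-Eb1 (log2 fold change 1.30 ± 0.56, adjusted p = 0.273, edgeR), and without the library that stood apart the value was 0.60 ± 0.53. Averaged over treatments, genotype log2 fold changes were −0.16 ± 0.48 for H2-Aa, −0.21 ± 0.41 for H2-Ab1 and 0.10 ± 0.39 for H2-Eb1 (adjusted p = 0.935, 0.889 and 0.952, edgeR). Without the library that stood apart they were −0.71, −0.62 and −0.25, and without replicate 2 of WT with vehicle 0.15, 0.09 and 0.36. Ciita ran from 1.53 to 6.87 CPM and is uncertain, since it overlaps Dexi.

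RefSeq promoter windows (GRCm38.p6) are shown for H2-Aa (minus strand, chr17:34287774-34288073) and H2-Eb1 (plus strand, chr17:34305617-34305916), as chains whose ratio in TPM ran from 1.30 to 2.70. Capitals mark CCAAT on either strand, the box that the factor NF-Y is known to bind in MHC class II promoters.
H2-Aa: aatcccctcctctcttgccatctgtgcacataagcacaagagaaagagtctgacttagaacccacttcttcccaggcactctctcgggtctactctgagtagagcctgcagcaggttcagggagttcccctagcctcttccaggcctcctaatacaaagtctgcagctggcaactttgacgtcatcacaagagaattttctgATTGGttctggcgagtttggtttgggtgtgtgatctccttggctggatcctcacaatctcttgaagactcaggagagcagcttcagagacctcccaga
H2-Eb1: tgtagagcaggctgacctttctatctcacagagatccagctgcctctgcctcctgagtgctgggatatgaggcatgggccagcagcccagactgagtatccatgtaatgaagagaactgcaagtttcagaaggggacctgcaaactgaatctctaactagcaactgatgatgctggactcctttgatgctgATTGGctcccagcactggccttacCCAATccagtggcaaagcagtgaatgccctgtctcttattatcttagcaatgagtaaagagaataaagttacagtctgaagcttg
The H2-Aa window held 1 match, 48 bases before the start, and the H2-Eb1 window held 2, at 59 and 35 bases before it. CCAAT was in 37.4% of the 32851 windows and in those of 8 of the 25 genes that had one.

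Cd74 departed from the chains it escorts. It measured 95.3, 80.1 and 42.1 CPM in WT with vehicle, 72.6, 97.4 and 52.5 in cKO with vehicle, 55.7, 81.4 and 49.7 in WT with DMαKG, and 135, 110 and 124 in cKO with DMαKG. The last group lay above all other libraries. Its cKO to WT log2 fold change with DMαKG was 0.98 ± 0.30 (adjusted p = 0.287, edgeR), and it was 0.98 also without the library that stood apart. Cd74 to H2-Ab1 in TPM was 3.27 to 5.93 in the 6 WT libraries, 8.14 to 13.1 in 5 cKO libraries and 3.39 in replicate 3 of cKO with DMαKG. Cd74 to H2-Aa gave 2.27 to 4.65, 5.83 to 8.17 and 1.83. These ratios were formed after the values were seen and are a description.

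**Figure D4:**
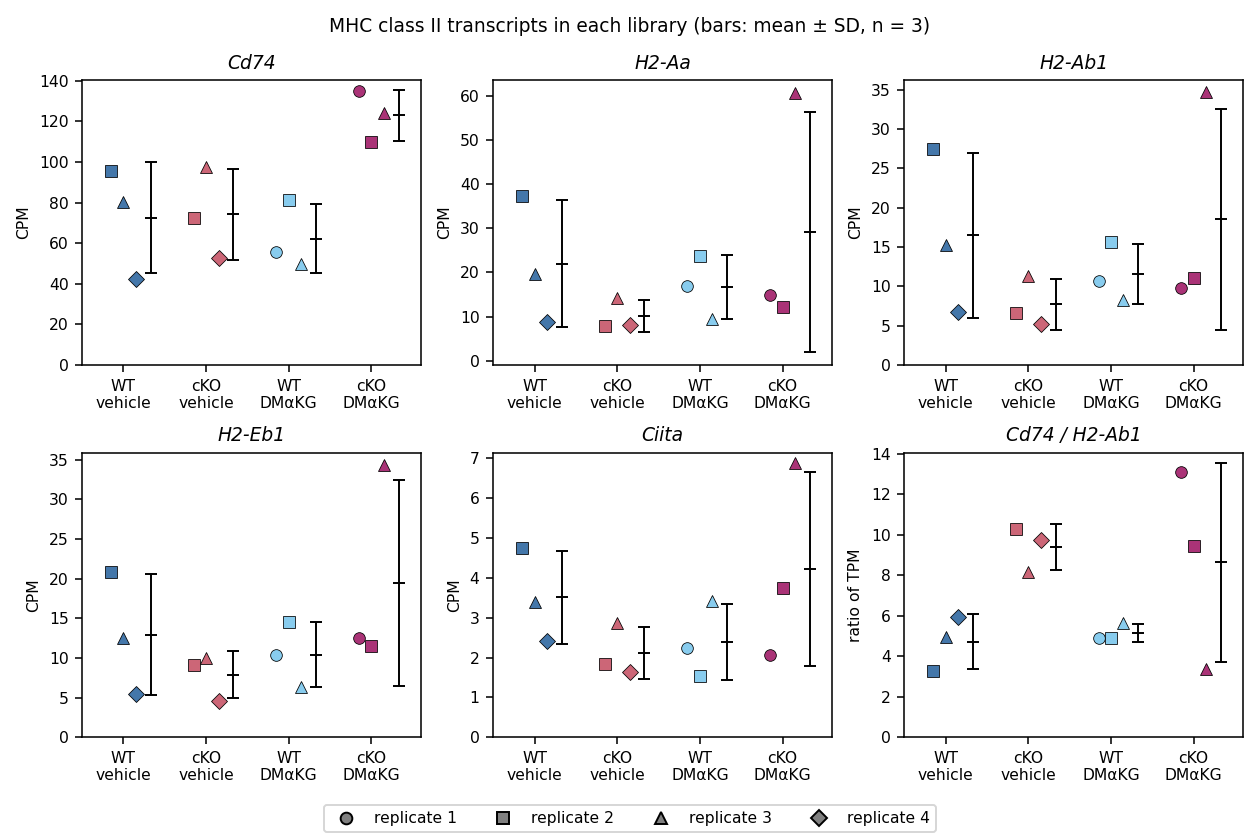
CPM of 5 MHC class II genes in each library, and the ratio of Cd74 to H2-Ab1 in TPM (symbols: replicate number, bars: mean ± SD, n = 3). The chains peak in replicate 3 of cKO with DMαKG, whereas Cd74 is high in all 3 libraries of that group, and the ratio is 8.14 to 13.1 in 5 of the 6 cKO libraries against 3.27 to 5.93 in WT.

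Of the 4 other B cell genes, Swap70 measured 126, 108 and 134 CPM in WT with vehicle, 181, 172 and 138 in cKO with vehicle, 125, 153 and 139 in WT with DMαKG, and 142, 175 and 183 in cKO with DMαKG. With vehicle all cKO libraries lay above all WT libraries, at a log2 fold change of 0.41 ± 0.14 (adjusted p = 0.468, edgeR). Fcrla, an intracellular Fc receptor-like protein of B cells, measured 1.75, 0.611 and 0.682 CPM in WT with vehicle, 0.0542, 0.275 and 0.413 in cKO with vehicle, 0.527, 0.454 and 0.427 in WT with DMαKG, and 0.130, 0.289 and 1.14 in cKO with DMαKG. With vehicle it lay lower in all cKO libraries (−1.99 ± 0.74, adjusted p = 0.541), and without replicate 2 of WT with vehicle the value was −1.35. Ralgps2, which overlaps Angptl1 and is uncertain, ran from 42.7 to 73.4 CPM, and Vpreb3, of the pre-B receptor family, was at 0 counts in 3 libraries, at most 11 in any, and was not tested.

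Read together over all 12 libraries, the 31 tested transcripts leaned in opposite directions under the 2 treatments. The lean with DMαKG rested on the library that stood apart, as given below. With vehicle, 22 of 31 were lower in cKO than in WT and 9 higher; the median log2 fold change was −0.47, against 0.01 over all genes. None was called by edgeR (0.062% of all genes were) or by DESeq2, and 1 was by limma voom, which called 245 of all genes tested. An unadjusted p below 0.05 was reached by 4 of 31, against 7.29% of all genes, and 7 had groups that did not overlap (1 higher, 6 lower), against 15.3%. Without replicate 2 of cKO with vehicle the median was −0.17 with 0 at an unadjusted p below 0.05, and without replicate 2 of WT with vehicle it was −0.26, while without replicate 3 of cKO with vehicle it was −0.93. Over all 12 libraries left out in turn the median stayed below 0.

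With DMαKG, 27 of 31 were higher in cKO than in WT, at a median of 0.50 against 0.00 over all genes. None was called by edgeR (0.186% of all genes were), while DESeq2 and limma voom each called 2, Cd22 and Cd40. Over all genes DESeq2 and voom also called more than edgeR did, up to 237 with voom. An unadjusted p below 0.05 was reached by 8 of 31, against 10.4% of all genes, and 9 did not overlap (7 higher, 2 lower), against 15.0%. Without the library that stood apart, 15 of 31 were higher and the median was −0.09, so the lean of the whole set rested on that library.

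DMαKG against vehicle in cKO, which shares those DMαKG libraries, gave 26 of 31 higher and a median of 0.73 against 0.00. None was called by edgeR (0.0% of all genes), 1 by DESeq2 (Jchain) and 1 by limma voom (Cd40). Over all genes DESeq2 and voom also called more than edgeR did, up to 450 with voom. An unadjusted p below 0.05 was reached by 12, against 17.3% of all genes, and 9 did not overlap, all higher, against 21.1%. Without the library that stood apart the median was 0.30, with 18 of 31 higher and 3 at an unadjusted p below 0.05, and without replicate 3 of cKO with vehicle it was 1.14.

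DMαKG against vehicle in WT gave 9 of 31 higher and a median of −0.22. None was called by edgeR (0.0% of all genes), by DESeq2 or by limma voom, 2 had an unadjusted p below 0.05 against 2.73% of all genes, and 4 did not overlap, all lower, against 8.45%. With a library left out the median ran from −0.33 (without replicate 4 of WT with vehicle) to −0.08 (without replicate 2 of it). The interaction had a positive sign for 27 of 31 with a median of 1.17 against −0.01, with 0 called by edgeR (0.0% of all genes), DESeq2 or limma voom and 11 at an unadjusted p below 0.05 against 3.64%. Without the library that stood apart its median was 0.83, and of the 31 only Blk kept an unadjusted p below 0.05 (0.0118, edgeR).

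Averaged over treatments, genotype gave 19 of 31 higher in cKO and a median of 0.06, or −0.22 with 9 higher without that library and −0.20 without replicate 3 of cKO with vehicle. An unadjusted p below 0.05 was reached by 8 of 31, against 12.8% of all genes. For 0 of the 31 did the 6 cKO libraries lie wholly apart from the 6 WT libraries, against 1.71% of all genes. Averaged over genotypes, DMαKG gave 23 of 31 higher and a median of 0.26, with a range of 0.00 (without that library) to 0.38 (without replicate 2 of WT with vehicle) over the libraries left out. None of the 31 was called there by edgeR (0.00775% of all genes were), DESeq2 or limma voom, and 2 had an unadjusted p below 0.05, against 15.9%. None had groups that did not overlap, against 0.488%.

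**Figure D5:**
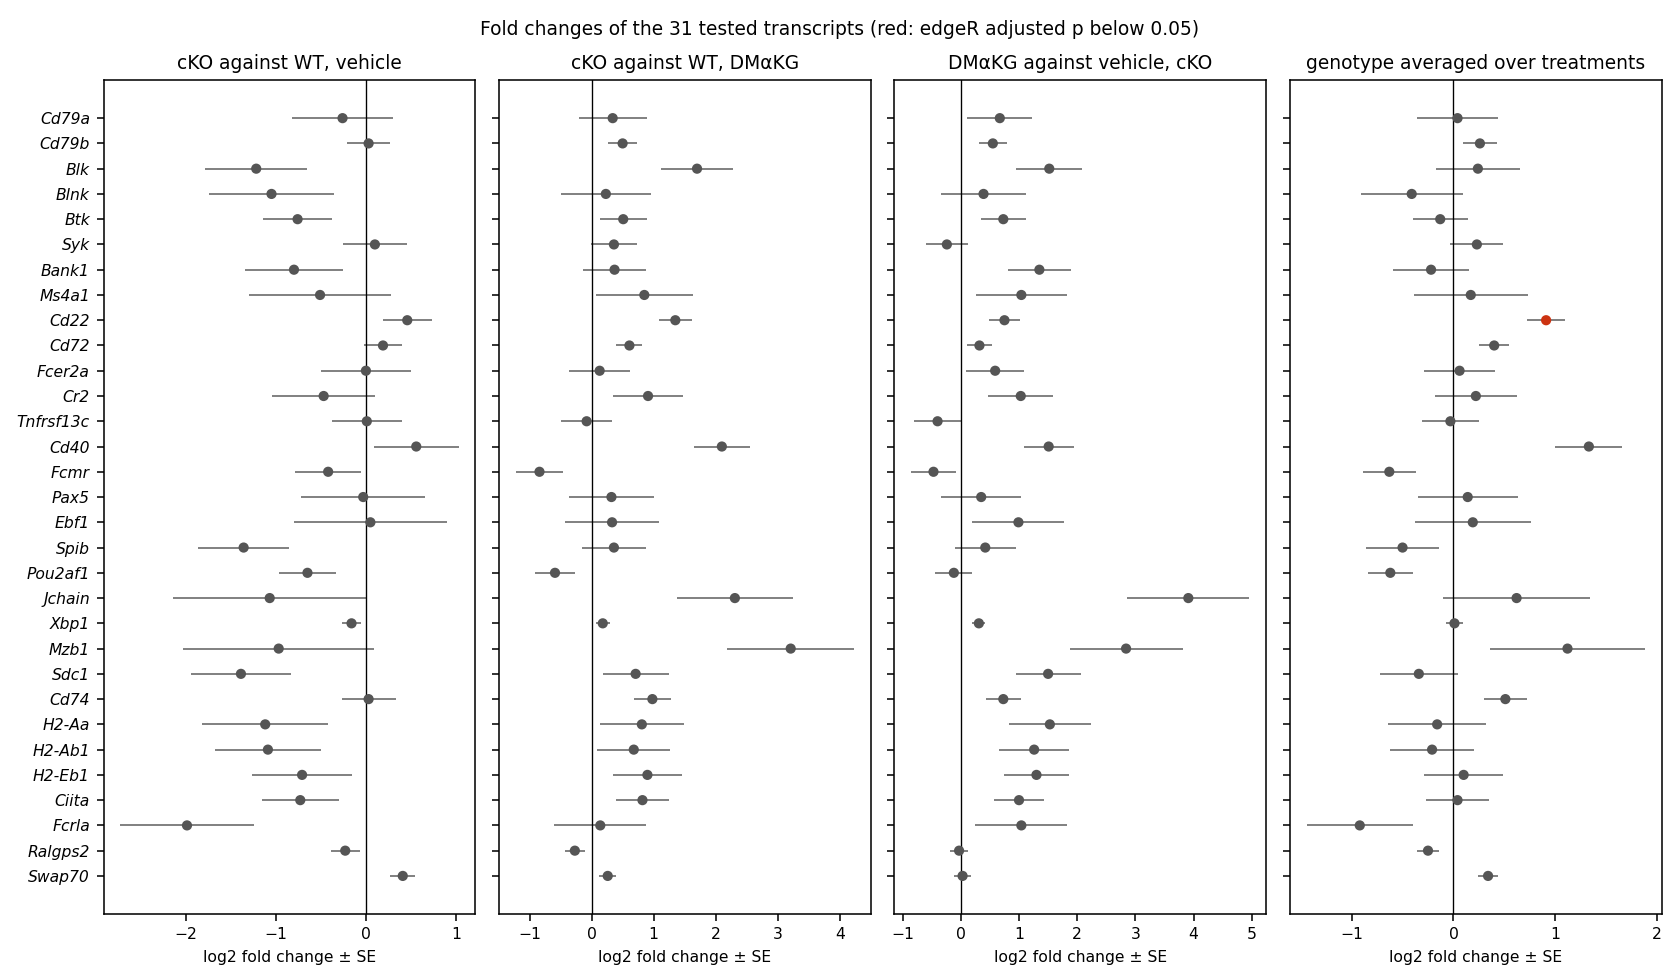
Log2 fold change ± SE of the 31 tested transcripts in 4 contrasts (edgeR). Only Cd22, in red in the last panel (0.91 ± 0.19), passed the adjusted threshold of 0.05; with vehicle most points lie left of 0, and in the cKO against WT contrast with DMαKG and the DMαKG contrast in cKO most lie right of it, while in the last 19 of 31 do.

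Other genes of the same programmes were read from a list of 36 further B lineage genes, of which 30 were in the table and 28 tested. The list holds genes abundant in these Treg libraries, such as Cd37 (364 TPM on average) and Cd83 (147 TPM), and summed to 810 to 1010 TPM. It also shares Irf8 and Ly6d with the dendritic cell list read below, so it is not a measure of B cell RNA alone. None of the 28 was called by edgeR in any contrast. With vehicle 21 of 28 were lower in cKO (median −0.39, 6 at an unadjusted p below 0.05 against 7.29% of all genes), and with DMαKG 17 were higher (median 0.11, 3 at an unadjusted p below 0.05 against 10.4%); averaged over treatments 21 were lower (median −0.20, 7 at an unadjusted p below 0.05 against 12.8%). Nearest to the threshold was Derl3, of protein quality control in the endoplasmic reticulum, with an averaged genotype log2 fold change of 1.60 ± 0.36 (adjusted p = 0.0581). Of 10 further MHC class II genes, 1 was called for averaged genotype, where 1.01% of all genes tested were. It was H2-Oa, a chain of the peptide-loading regulator H2-O. H2-Oa measured 14.2, 14.5 and 12.3 CPM in WT with vehicle, 23.1, 18.1 and 17.1 in cKO with vehicle, 19.8, 15.8 and 16.1 in WT with DMαKG, and 28.2, 25.9 and 41.0 in cKO with DMαKG, and it rose in cKO by 0.69 ± 0.13 on the log2 scale averaged over treatments (adjusted p = 0.0282, edgeR). Its highest value came from the library that stood apart, and fits without single libraries are not given for it.

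Markers of other antigen-presenting cells were read beside these genes. With vehicle, 11 of 12 tested dendritic cell markers and 18 of 19 macrophage and monocyte markers were lower in cKO (medians −1.03 and −0.99). None was called by edgeR in that contrast, where 0.062% of all genes were, and 7 and 3 had an unadjusted p below 0.05, against 7.29%. With DMαKG, where 27 of the 31 transcripts were higher in cKO, 5 of 12 dendritic cell markers (median −0.01) and 14 of 19 macrophage markers (median 0.12) were higher. Averaged over treatments, 1.01% of all genes tested were called. Ccr9, a chemokine receptor of plasmacytoid dendritic cells and some T cells, fell there by 0.87 on the log2 scale (adjusted p = 0.0213, edgeR). Nkg7, a granule protein of NK and CD8 T cells, fell by 0.78 (adjusted p = 0.0379, edgeR). The rest of its list did not follow, as 3 of 6 tested NK and CD8 T cell markers were higher in cKO and 3 lower (median 0.05). For Ccr9 and Nkg7, fits without single libraries are not given. Summed levels of the dendritic cell list were 168 to 229 TPM in WT with vehicle, 128 to 160 in cKO with vehicle, 136 to 160 in WT with DMαKG and 126 to 137 in cKO with DMαKG. For the macrophage list they were 617 to 938, 449 to 625, 516 to 881 and 531 to 838 TPM. Both lists summed highest in replicate 2 of WT with vehicle, and the macrophage list lowest in replicate 2 of cKO with vehicle. Median fold changes of the lists without those libraries are not given. These lists hold genes that T cells also make, and their part in the levels of the MHC class II and B cell genes was not tested.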

How the data were processed

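RNA-seq of 12 sorted Treg libraries was read from 1 table. Per the submitters' processing notes, the tools were HISAT2 (2.0.5), featureCounts (1.5.0-p3) and DESeq2 (1.16.1) on the mm10 build; their roles are not described. The authors deposited estimated counts per gene, not normalized; 36% of values were not whole and were rounded, although the tests had been planned for whole counts. The deposited TPM values are scaled by length to a common sum, and the deposited FPKM values by length and depth, per the file headers; FPKM was not used. A strand setting for the counting was not given in the sources used here, and 4 of the 33 genes overlap another gene of the table.

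Genes were filtered with filterByExpr, scaled by TMM and fitted with edgeR 4.0.16 (R 4.3.3) by robust quasi-likelihood with 1 mean per group over all 12 libraries and 8 residual degrees of freedom. There were 7 contrasts, with Benjamini-Hochberg adjustment over 12903 genes and a threshold of 0.05. The fit was tested on data simulated for cKO against WT with vehicle. It recovered 14% of 1.5-fold changes, 78% of 2-fold, 96% of 3-fold and 98% of 4-fold changes, and 8 of its 151 calls were false. A transcript that was not called may therefore still differ, above all by less than 2-fold. Recovery was not broken down by level, so these shares may not hold for scarce transcripts. Alternatives were other scalings and filters, DESeq2 1.42.0, limma 3.58.1 voom with quality weights, a block on the replicate number, a fit of only the groups compared, and leaving out each library; a Y-linked covariate and a non-robust fit were added after seeing the data.

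The 33 genes and all lists were chosen with earlier results of these data known. Values in every library were given for 11 preset genes, for those called and for the 2 with the smallest p in each contrast; other genes given so were chosen after their values were seen. Coordinates and promoter windows come from RefSeq (GRCm38.p6).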

Additional observations from a re-analysis of the deposited data

How the results depend on the processing

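Of the log2 fold changes recomputed under each alternative, the 2 transcripts with the smallest p in each of the 7 contrasts, none changed sign. Without replicate 3 of cKO with DMαKG, averaged genotype changed sign for Cd79a, Ms4a1, Pax5, H2-Eb1, Jchain, Fcer2a, Blk, Ciita, Ebf1 and Xbp1. Without it, cKO against WT with DMαKG did so for Jchain (2.31 to −0.09), H2-Aa (0.81 to −0.3) and H2-Ab1 (0.68 to −0.13). The same held there for Cd79a, Ms4a1, Pax5, Fcer2a, Ebf1, Bank1, Blnk, Fcrla and Spib. Medians over the 31 transcripts changed sign too. Under voom they were −0.08 for cKO against WT with DMαKG, −0.15 for averaged genotype and −0.03 for averaged DMαKG. With the replicate block the averaged genotype median was −0.01. Averaged over treatments, 1 of the 31 transcripts was called for genotype (Cd22); 2 were with DESeq2, 6 with limma voom with quality weights (Pou2af1, Fcrla, Ralgps2, Cd40, Swap70 and Cd22), and between 0 and 1 when a library was left out. Voom also called 1 for cKO against WT with vehicle (Swap70), 2 with DMαKG and 1 for DMαKG in cKO; DESeq2 called 2 with DMαKG and 1 for DMαKG in cKO. For cKO against WT with DMαKG, leaving out a library gave 0 to 1 (Cd22, without replicate 2 of cKO with vehicle). Over all genes the counts moved more: for the averaged genotype contrast 130 with edgeR, 398 with DESeq2, 1038 with voom, and 52 to 164 with a library left out. For cKO against WT they were 8, 100 and 245 with vehicle and 24, 143 and 237 with DMαKG; for DMαKG they were 0, 389 and 450 in cKO, 0, 2 and 8 in WT and 1, 331 and 1546 averaged. With edgeR and a library left out they were 1 to 5, 1 to 33, 0 to 137, 0 to 0 and 0 to 619, in that order; the 137 and the 619 came without replicate 3 of WT with DMαKG, so the shares of all genes called that stand beside the 31 in those contrasts depend on that library. The cause was not tested.

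The labels give both genotypes the same replicate numbers. Deviations of same-numbered libraries from their group means correlated at −0.28 to 0.47. These values do not settle whether the numbers pair the mice, and the main fit took the mice as unpaired. With the replicate block 0 of the 31 were called for averaged genotype (Cd22 adjusted p = 0.121, edgeR) and 12 genes in all. In 8 of the 33 transcripts at least 1 library held 3 counts or fewer, which limits what their differences can show.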
